A study of Mus musculus with 6 samples.

Results

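Notch signalling passes between neighbouring cells: a Delta or Jagged ligand on one cell binds a Notch receptor on the next. The receptor is then cut by ADAM proteases and gamma-secretase, and its freed intracellular part joins the DNA-binding protein RBPJ to switch on repressor genes of the Hes and Hey families. In vessels Dll4, Notch1 and Notch4 are known for the choice between sprouting and arterial fates, and in marrow stroma Jag1, Notch2 and Hey1 are known for restraining osteoblast and cartilage maturation. The 10 genes described here were taken from a list by symbol: the receptors Notch1, Notch2 and Notch4, the ligands Dll1, Dll4, Jag1 and Jag2, and the targets Hes1, Hey1 and Hey2. All 10 were measured, among 19938 genes in all, each by the brightest probe set that carries that symbol alone.

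The cells were mouse bone marrow cells from dissociated tissue, negative for CD45 (a leukocyte marker) and Ter119 (a red cell marker) and positive for CD73 (a surface enzyme that makes adenosine). A sort by CD105, or endoglin, which helps receptors bind TGF-beta and BMP ligands, gave 3 samples of CD73+CD105- cells and 3 of CD73+CD105+ cells, with 1 array each and no treatment named. The labels used here give no strain, genotype or age for the mice. They call the samples biological replicates but name no separate animals, and p-values therefore reflect the spread of these samples only.

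Values are log2 expression after RMA, and every difference is CD73+CD105+ minus CD73+CD105- on that scale. Array medians lay between 6.27 and 6.35. The sort was visible in Eng, the gene of CD105, which was 3.38-fold higher in CD73+CD105+ cells (adjusted p = 0.00322 in limma), while Ptprc, the gene of CD45, had means of 4.71 and 4.70 (CD73+CD105- first). Nt5e, the gene of CD73, had means of 10.63 and 10.37 (difference -0.26, adjusted p = 0.183). The replicate 1 arrays stand apart: over all probe sets, the mean of the 2 replicate 1 arrays differed from the mean of the other 4 by an SD of only 0.0627, against at least 0.202 for the 8 other pairs made of 1 array per population. For the 10 Notch genes that gap ran from -0.06 to 0.05. Differences are therefore also given within replicate 1, within replicates 2 and 3, and with a term for replicate 1 in the fit, called the batch term. The labels name no batch and no step after RMA that would bring the replicate 1 arrays to this balance; whether one was made was not tested. The SEs and p-values without the batch term treat the 6 arrays as independent.

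Of the 8 genes with a RefSeq promoter window only Hey2 had the RBPJ motif there, so its sequence is shown before the values. Promoter windows of 300 bases, 250 before and 50 after a gene start, were taken from RefSeq (GRCm38.p6), where 8 of the 10 genes matched. Hes1 and Hey1 did not, and were not searched. The motif was searched as TGGGAA and, in a longer form that contains it, as GTGGGAA, on both strands. The shorter form was present in 1 of 9 windows of these genes (Dll1 has 2 windows), against 25.56% of all 32851 windows. Hey2 held 2 matches, both also matching the longer form, which was found at least 2 times in 0.26% of all windows. The first begins 207 bases before the gene start, on the opposite strand, and the second begins 3 bases before it, on the gene's own strand. The 30 bases around each match are given here in the gene's direction, with the 6 motif letters in capitals (TTCCCA is TGGGAA read on the other strand).
Hey2 upstream site, chr10:30842973-30843002, minus strand: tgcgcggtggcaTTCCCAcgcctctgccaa
Hey2 start site, chr10:30842769-30842798, minus strand: tgggctgcagcgTGGGAAagaacctccagg
The 250 bases before the Hey2 start hold the first match in capitals and end 3 bases into the second, which is therefore not in capitals there.
Hey2, chr10:30842784-30843033, minus strand: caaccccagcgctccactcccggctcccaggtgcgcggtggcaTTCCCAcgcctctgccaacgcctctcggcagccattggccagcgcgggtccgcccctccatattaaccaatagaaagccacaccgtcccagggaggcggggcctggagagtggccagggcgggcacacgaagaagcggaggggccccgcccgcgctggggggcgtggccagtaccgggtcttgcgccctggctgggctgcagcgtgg
A match of letters is a description of the sequence and does not show that RBPJ binds there. Egfl7, the pathway gene outside the 10 that passed the test given further on, has 3 windows, and 1 of them held a single match of the shorter form, beginning 162 bases before that start.
Egfl7, chr2:26580909-26580938, plus strand: cgcatcctttgaTGGGAAgttaggcccagc

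None of the 10 Notch genes passed an adjusted p of 0.05 between the populations (limma, Benjamini-Hochberg over all 19938 genes), the smallest being 0.115. Over all genes 1.82% passed, or 0.507% with the batch term, which also called none of the 10. At an unadjusted p under 0.05 limma counted 3 of the 10, Notch1, Dll1 and Hey2, all with higher values in CD73+CD105+ cells, where 17.7% of all genes lay under that p and 8.58% did so with higher values. In 2 of the 10, Notch1 and Dll1, the 3 arrays of one population lay entirely above those of the other; this was so for 23.7% of all genes, and for 10.7% with CD73+CD105+ cells on top. The median difference of the 10 was 0.16, against -0.02 over all genes, with 7 above 0 and 3 below, where 44.4% of all genes lay above 0.

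**Figure D1:**
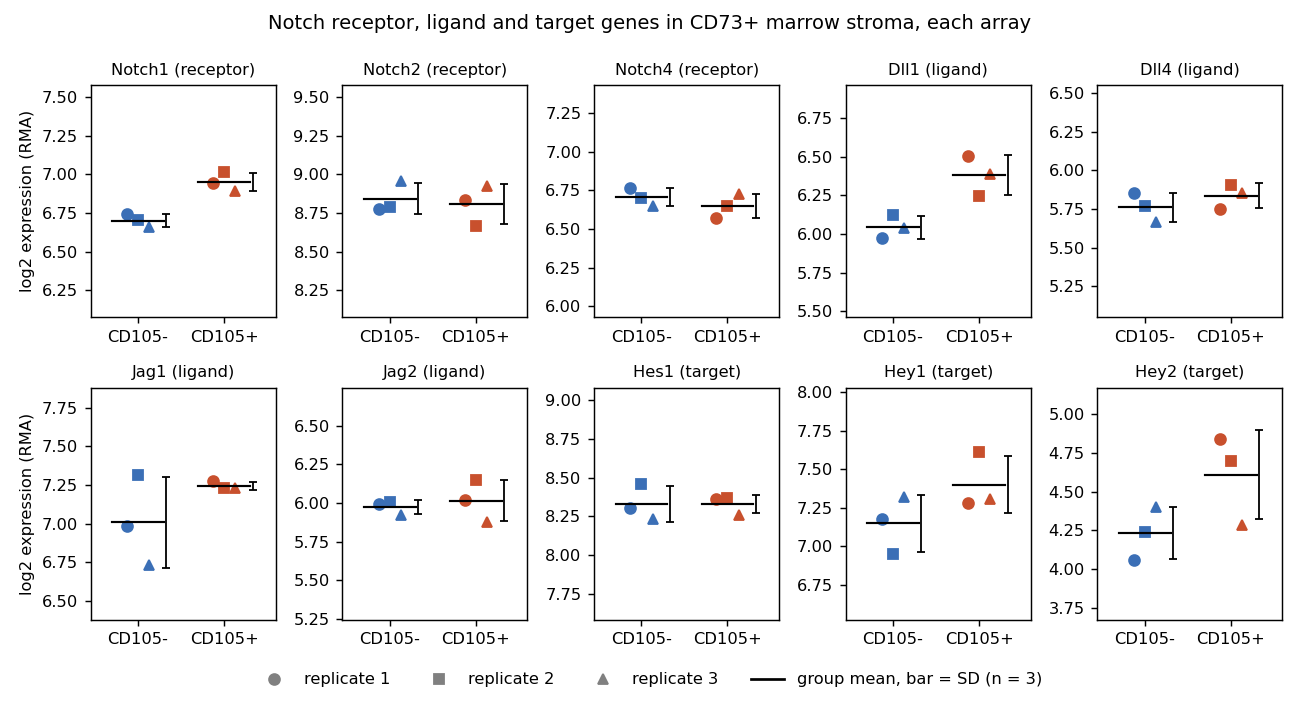
Log2 RMA expression (y axis, a span of equal height in each panel but a different range) of the 10 Notch genes in CD73+CD105- (blue, CD105-) and CD73+CD105+ (red, CD105+) samples; symbols mark replicates, lines group means and bars the SD (n = 3). The populations do not overlap for Notch1 and Dll1 and overlap for the other 8.

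Among the receptors, Notch1 was at 6.74, 6.71 and 6.66 in replicates 1, 2 and 3 of CD73+CD105- cells and at 6.94, 7.01 and 6.89 in those of CD73+CD105+ cells. All 3 CD73+CD105+ arrays lay above all 3 CD73+CD105- arrays. Group means were 6.70 ± 0.04 and 6.95 ± 0.06 (SD, n = 3 each), a difference of 0.25 (SE 0.07), or 1.19-fold with a 95% confidence interval of 1.06 to 1.33. Its adjusted p of 0.123 became 0.312 with the batch term. The gap was similar within replicate 1 (0.20) and within replicates 2 and 3 (0.27).

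Notch2, the receptor known from osteoclast and marrow stromal lineages, gave 8.78, 8.79 and 8.96 in CD73+CD105- cells and 8.83, 8.67 and 8.93 in CD73+CD105+ cells. The populations overlapped, and the highest and lowest arrays came one from each. The difference was -0.03 (SE 0.09, adjusted p = 0.894), with an interval of 0.84 to 1.14 on the fold scale; its sign changed without CD73+CD105- replicate 3 or CD73+CD105+ replicate 2.

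Notch4, known mainly from endothelial cells, gave 6.77, 6.70 and 6.65 in CD73+CD105- cells and 6.57, 6.65 and 6.73 in CD73+CD105+ cells. The ranges overlapped. The difference was -0.06 (SE 0.07, adjusted p = 0.743) with a 95% confidence interval of 0.85 to 1.08 on the fold scale. Within replicate 1 it was -0.19 and within replicates 2 and 3 it was 0.01. A further 6 probe sets carry the symbol Notch4 together with Sympk and were not used; their differences ran from -0.19 to 0.06.

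Among the ligands, Dll1, a Delta ligand, was at 5.97, 6.12 and 6.04 in CD73+CD105- cells and at 6.51, 6.25 and 6.39 in CD73+CD105+ cells. Again no CD73+CD105+ array fell among the CD73+CD105- arrays. The means were 6.04 ± 0.08 and 6.38 ± 0.13 (SD, n = 3 each), a difference of 0.34 (SE 0.09) and a fold of 1.26 (95% confidence interval 1.09 to 1.46). Its adjusted p of 0.115 was the smallest of the 10; with array weights in the limma fit, which gave the replicate 1 arrays weights of 1.61 and 2.44 and the others 0.612 to 0.807, it was 0.0343, and with the batch term 0.269. The gap was 0.53 within replicate 1 and 0.24 within replicates 2 and 3.

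Dll4, the Delta ligand of endothelial tip and arterial cells, gave 5.85, 5.77 and 5.67 in CD73+CD105- cells and 5.75, 5.90 and 5.85 in CD73+CD105+ cells. The ranges overlapped, and the direction differed between replicate 1 (-0.10) and replicates 2 and 3 (0.16). Over all arrays the difference was 0.07 (SE 0.08, adjusted p = 0.678).

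Jag1, a Jagged ligand made by stromal, endothelial and smooth muscle cells, was spread widely in CD73+CD105- cells, at 6.98, 7.32 and 6.73, and tightly in CD73+CD105+ cells, at 7.28, 7.23 and 7.23. The highest and the lowest array both belonged to CD73+CD105- cells, whose SD was 0.29 against 0.03. The difference of 0.24 (SE 0.14) had an adjusted p of 0.437 and a 95% confidence interval on the fold scale of 0.94 to 1.48. Leaving out single arrays moved it between 0.10 and 0.39.

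Jag2 gave 5.99, 6.01 and 5.92 in CD73+CD105- cells and 6.02, 6.15 and 5.88 in CD73+CD105+ cells. The CD73+CD105+ arrays spanned the CD73+CD105- arrays on both sides. The difference was 0.04 (SE 0.09, adjusted p = 0.844), and it was -0.02 without CD73+CD105+ replicate 2.

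**Figure D2:**
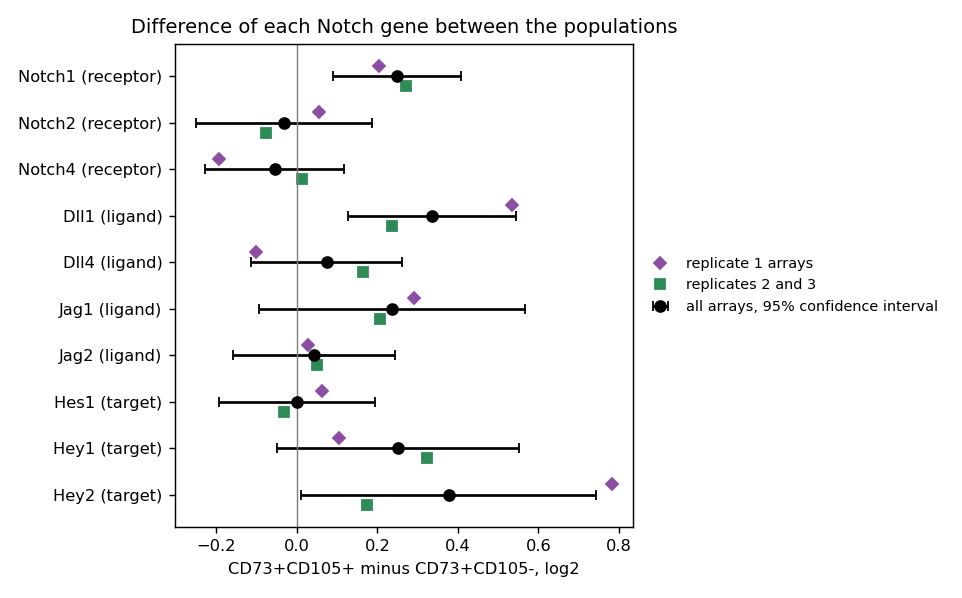
Difference in log2 expression, CD73+CD105+ minus CD73+CD105- (x axis), for each of the 10 Notch genes: black points with 95% confidence intervals use all arrays, purple diamonds the replicate 1 arrays and green squares replicates 2 and 3. Intervals stay above 0 for Notch1, Dll1 and Hey2 before adjustment, and Hey2 runs from 0.17 in replicates 2 and 3 to 0.78 in replicate 1.

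Among the targets, Hes1, a repressor that Notch induces in many tissues, differed least of the 10. It gave 8.30, 8.46 and 8.23 in CD73+CD105- cells and 8.36, 8.37 and 8.26 in CD73+CD105+ cells, with the CD73+CD105+ arrays inside the CD73+CD105- range. Both means were 8.33 (SD 0.12 and 0.06). The 95% confidence interval of the difference was -0.19 to 0.19, or 0.87 to 1.14 on the fold scale. That interval treats the arrays as independent, and its SE of 0.082 became 0.099 with the batch term. The difference itself was -0.00052, and its sign changed when the arrays were centred on their medians.

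Hey1, a repressor related to Hes1 that is known from arterial endothelium and from osteoblasts, gave 7.18, 6.95 and 7.32 in CD73+CD105- cells and 7.28, 7.61 and 7.31 in CD73+CD105+ cells. Only the second CD73+CD105+ array lay above every CD73+CD105- array. The difference was 0.25 (SE 0.13, adjusted p = 0.36), and it stayed above 0 within replicate 1 (0.10) and within replicates 2 and 3 (0.32).

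Hey2, the relative of Hey1 whose window carries the RBPJ motifs printed above, had the largest difference of the 10 over all arrays, with one of the widest spreads and both means under the background reference given in the next paragraph. The rank rests on replicate 1, where the difference was 0.78; in replicates 2 and 3 it was 0.17, behind Hey1 (0.32), Notch1 (0.27), Dll1 (0.24) and Jag1 (0.21). It gave 4.06, 4.24 and 4.40 in CD73+CD105- cells and 4.84, 4.70 and 4.29 in CD73+CD105+ cells. CD73+CD105+ replicates 1 and 2 lay above all CD73+CD105- arrays, and replicate 3 lay among them. The difference was 0.38 (SE 0.16, 1.3-fold, 95% confidence interval 1.01 to 1.67) with an adjusted p of 0.272 in limma. The batch term moved the unadjusted limma p from 0.0455 to 0.0638.

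For 3 of the 10 genes, Dll4, Jag2 and Hey2, the means of both populations were under 6.02. That value is the 95th percentile among 1179 odorant and pheromone receptor genes (Olfr, Vmn1r and Vmn2r), taken as genes that marrow does not use. Dll1 lay close to that value in CD73+CD105- cells, with a mean of 6.04 and replicate 1 at 5.97. Probe sets differ in brightness for the same amount of RNA, so the percentile is no detection call and the levels of different genes are not ranked. Near background RMA narrows differences, and the folds of Dll4, Jag2, Hey2 and Dll1 may be understated. Because the samples are bulk RNA, a change in the share of a cell type and a change in RNA per cell cannot be told apart. The moderated SEs of the 10 ran from 0.07 to 0.16 with a median of 0.0869, against 0.0928 over all genes. Moderation draws SEs toward a common value, so this likeness does not show how precisely these genes were measured. The upper ends of the intervals reach at most 1.67-fold (Hey2).

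**Figure D3:**
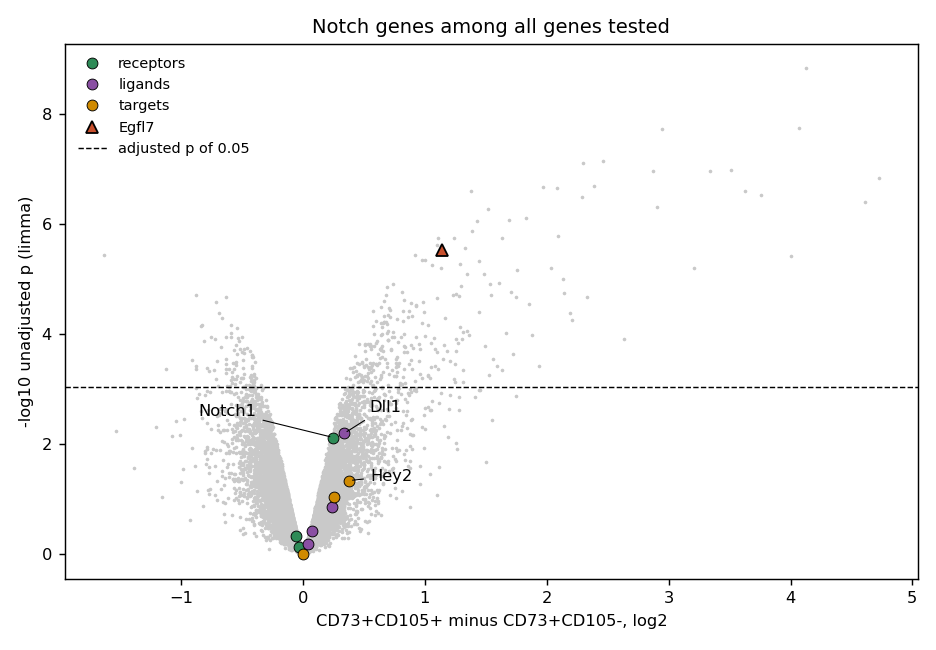
Difference in log2 expression, CD73+CD105+ minus CD73+CD105- (x axis), against -log10 of the unadjusted limma p (y axis) for the 19938 genes tested (grey), with the 10 Notch genes coloured by role. All 10 lie under the dashed line of an adjusted p of 0.05, and Egfl7, a secreted pathway modulator, lies above it.

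In the rest of the pathway 1 gene rose, Egfl7, a protein secreted by endothelial cells that binds Notch receptors. Of 53 further measured Notch pathway genes none fell and 52 did not pass, against 1.82% of all genes passing and 1.35% rising. Their median difference was 0.00188, with 27 above 0 and 26 below. Limma gave 6 of the 53 an unadjusted p under 0.05, 5 with higher values. Over all genes 17.7% lay under that p, and 8.58% did so with higher values. Egfl7 stood at 6.51, 6.48 and 6.68 in CD73+CD105- cells and at 7.81, 7.67 and 7.62 in CD73+CD105+ cells, with no overlap. It rose by 1.14 (SE 0.09, adjusted p = 0.00195), or 2.21-fold, with an adjusted p of 0.00956 with the batch term; in replicates 2 and 3 alone the difference was 1.06 and did not pass (0.083). In RefSeq (GRCm38.p6) Egfl7 lies beside Notch1 on chromosome 2 with 0 protein-coding genes between them, and their differences were 1.14 and 0.25.

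Of the other receptor and ligand genes, Notch3, the receptor of pericytes and smooth muscle, did not pass and was named after its values were seen, since it completes the receptors. It stood at 6.53, 6.39 and 6.57 in CD73+CD105- cells and at 6.83, 6.85 and 6.83 in CD73+CD105+ cells. The populations were separate, with a difference of 0.34 (SE 0.07, adjusted p = 0.0738). With array weights Notch3 passed (0.0319), and with the batch term the adjusted p was 0.221.

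No gene passed in the remaining roles. Of 9 genes that glycosylate the receptors or drive ligand uptake, Neurl1b, a ubiquitin ligase for ligands, was at -0.17 (adjusted p = 0.313) and Poglut1, which adds glucose to the receptors, at 0.11 (0.451). Of 9 cleavage genes, Ncstn, the nicastrin subunit of gamma-secretase, was at 0.32 (0.281) and the protease gene Furin at -0.22 (0.382).

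Of 13 genes of the RBPJ complex and its co-factors, Maml3, a co-activator of the Mastermind family, was at 0.32 (adjusted p = 0.077) and Rbpj itself at 0.13 (0.358). Of 8 inhibitors and turnover genes, Numb, which lowers receptor levels, was at 0.35 (0.164) and Dtx4 at 0.26 (0.345). Maml3 and Numb also passed with array weights, at 0.0254 and 0.0471, and did not with the batch term, at 0.226 and 0.324. For Numb the difference was 0.70 in replicate 1, whose arrays had the highest weights, and 0.18 in replicates 2 and 3. Of 8 further genes listed as targets, Hes6, listed for its Hes family name, was at -0.22 (0.248) and the arterial ligand gene Efnb2 at -0.15 (0.344). Whether the listed genes respond to Notch in these cells was not tested. In that list 7 differences lay below 0, as did 55.6% of all genes, and in replicates 2 and 3 alone 4 of the 8 lay above 0 (median -0.24 in replicate 1 and 0.03 in replicates 2 and 3).

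**Figure D4:**
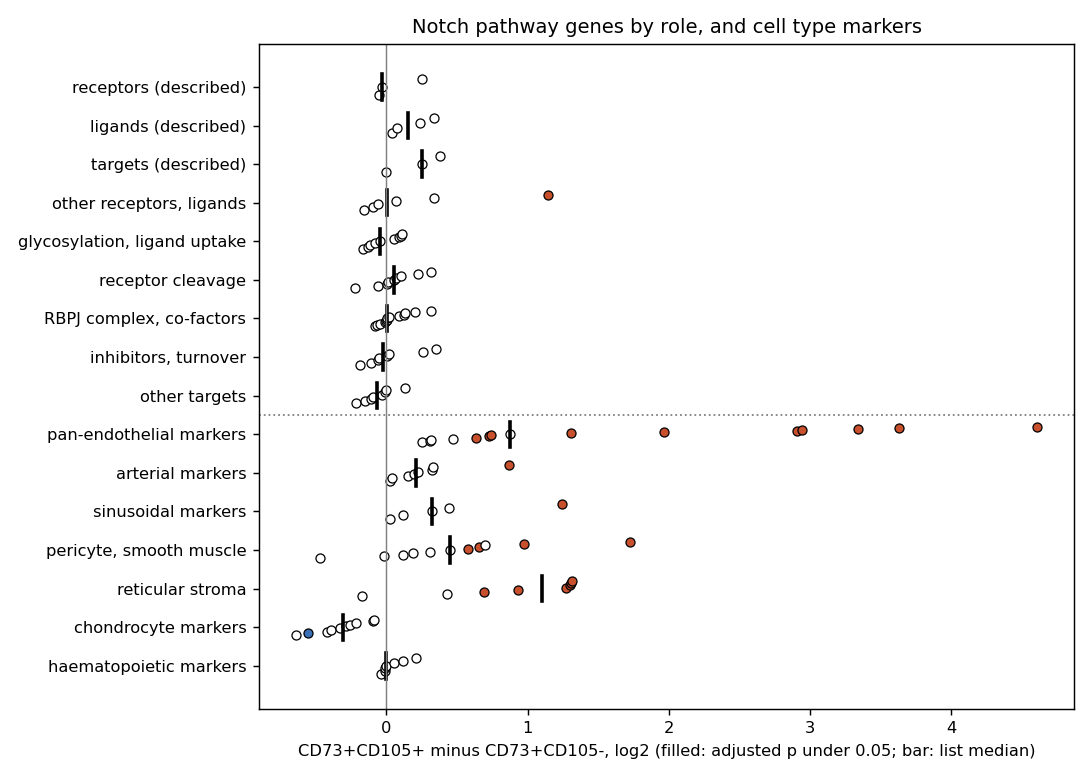
Difference in log2 expression, CD73+CD105+ minus CD73+CD105- (x axis), of the Notch genes by role (above the dotted line) and of cell type markers (below it); each circle is a gene, filled where the adjusted p is under 0.05, and bars are list medians. Egfl7 is the only filled circle among the Notch genes, while 10 of 15 pan-endothelial and 6 of 8 reticular stroma markers are filled.

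Markers of other cell types also differed in these arrays. For the counts in every marker list below, 1.82% of all genes passed in the main limma fit, 1.35% rising, and 0.507% passed with the batch term. An unadjusted limma p under 0.05 was found for 17.7% of all genes. Of 15 pan-endothelial markers 10 rose (7 with the batch term) and 0 fell, with a median of 0.88 and Emcn, Pecam1 and Cdh5 at 4.61, 3.63 and 3.34. The log2 of their summed level ran from 10.47 to 10.69 in CD73+CD105- and from 12.09 to 12.40 in CD73+CD105+ arrays. Of the Notch pathway genes known from endothelial cells, Egfl7 was higher by 1.14 and passed. Notch1 was higher by 0.25 and did not pass, while Notch4 and Dll4 stood at -0.06 and 0.07. Both means of Dll4 were under the odorant receptor percentile, so its difference may be understated. All 15 pan-endothelial markers were higher in every CD73+CD105+ array than in any CD73+CD105- array, as were 10.7% of all genes. Of the 10 Notch genes, Notch1 and Dll1 were separated in this way. Hey2 was not, since its CD73+CD105+ replicate 3 lay among the CD73+CD105- arrays. Separation or overlap of the arrays does not show the cell source of a transcript. The part of endothelial cells in the values of Egfl7, Notch1, Dll1 and Hey2 was not tested.

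Of 8 arterial endothelial markers 1 rose, Fbln5 by 0.86, ahead of Bmx (0.33) and Edn1 (0.33), which did not pass; the median was 0.21, with a summed level of 9.43 to 9.63 in CD73+CD105- and 9.99 to 10.13 in CD73+CD105+ arrays. Of 5 sinusoidal markers 1 rose, Plvap by 1.25, with Lyve1 at 0.44 and Stab1 at 0.32 not passing (median 0.32, summed level 8.53 to 8.69 and 9.05 to 9.47). With the batch term Plvap did not pass (adjusted p = 0.0746). The arterial genes that accompany Dll4 and Hey1 in arteries, Gja4 and Gja5, were at 0.15 and 0.04 and did not pass. They were picked out after their values were seen. Of the 8 arterial markers 4, among them Gja4, Gja5 and Bmx, had both means under the odorant receptor percentile, so their differences may be understated.

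Of 11 pericyte and smooth muscle markers 4 rose, led by Rgs5 at 1.72 and Tagln at 0.98, and Acta2 at 0.70 did not pass; Cspg4, named after its values were seen, was lower in all 3 CD73+CD105+ arrays (-0.47, adjusted p = 0.0634). The list's median was 0.45 and the summed level 11.11 to 11.31 against 11.49 to 11.78. With the batch term 1 passed. Of 8 reticular stroma markers 6 rose (2 with the batch term), with Adipoq, Cxcl12 and Vcam1 at 1.32, 1.31 and 1.30, a median of 1.10 and a summed level of 11.74 to 11.86 against 12.51 to 12.70. These cell types are known sources of Notch3 and Jag1, and their part in the values of those genes was not tested.

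Of 10 chondrocyte markers 1 fell, Sox6 by 0.56, with Sox5 at -0.64 and Matn3 at -0.42 not passing. All 10 differences lay below 0 (median -0.31), as did 55.6% of all genes, and the summed level was 15.09 to 15.30 against 14.76 to 15.07. In the main fit 7 had an unadjusted limma p under 0.05, all with lower values. With the batch term 4 did so and none passed. Of 6 osteoblast markers none passed, with Ifitm5, Sp7 and Col1a1 at 0.39, -0.35 and 0.27 (2 at an unadjusted limma p under 0.05; median 0.03, summed level 13.44 to 13.52 against 13.47 to 13.69). Of 7 haematopoietic markers none passed, with Cd79a, Ly6g and Itga2b at 0.21, 0.12 and 0.05 (1 at an unadjusted limma p under 0.05; median 0.00049, summed level 8.28 to 8.38 against 8.30 to 8.39), and 5 of the 7 had both means under the odorant receptor percentile. Of 12 immediate early and dissociation genes none passed, with Ier2, Btg2 and Atf3 at -0.51, -0.35 and -0.35 (2 at an unadjusted limma p under 0.05). All 12 differences lay below 0, as did 55.6% of all genes, with a median of -0.20 and a summed level of 14.69 to 14.99 against 14.44 to 14.78.

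The genes whose 6 array values ran most like those of Hey2, the Notch gene with the largest difference over all 6 arrays though not in replicates 2 and 3, were Usp54 (Pearson's r = 0.998 over 6 arrays), Cyp2r1 (0.995) and Dnajb5 (0.994). Their own differences were 0.09, 0.31 and 0.14, and none passed. In all, 96 of the genes tested had an r above 0.95 with Hey2 over these 6 arrays. They included the odorant receptor genes Olfr1282 (0.993) and Olfr732 (0.984), named after their values were seen. Such genes were taken above as not used by marrow, so a high r here does not show shared regulation.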

How the data were processed

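The authors deposited log2 expression values per probe set for 6 single-colour arrays of biotin-labelled RNA, made with RMA (background correction, quantile normalization and probe set summary), per the submitters' processing notes; the sources used here give no version or build. The platform annotation paired 21789 of 35556 probe sets with 1 gene symbol, 1621 with several and 12146 with none here; 21698 of the 21789 matched a RefSeq gene by Entrez ID. Per gene the probe set with the highest mean over the 6 arrays was kept (19938 genes), with no filter on dim genes. Populations were compared with limma 3.58.1 (lmFit, eBayes, two-sided, no block) in R 4.3.3, with Benjamini-Hochberg adjustment over all genes and a threshold of 0.05; SEs are moderated. The script was tested on simulated data. Precision is limited by the number of arrays.

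The Notch genes and all lists were chosen with earlier results of these data known. Named are all 10 genes; in each other role the genes past the threshold, or else the 2 with the smallest p; and up to 3 members per marker list with the largest difference. The lists held 55 other Notch pathway genes (53 measured), and markers of endothelial (pan, arterial, sinusoidal), pericyte, reticular, chondrocyte, osteoblast and haematopoietic cells and immediate early genes. The replicate numbers were checked for pairing by the correlation, over genes, of deviations from the group means.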

Additional observations from a re-analysis of the deposited data

How the results depend on the processing

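Over all genes, 363 passed in the main limma fit, 101 with the batch term for replicate 1, 29 in replicates 2 and 3 alone, 1331 with array weights and 86 to 293 when 1 array was left out (leaving out CD73+CD105+ replicates 1 and 3 gave 86 and 169, and CD73+CD105- replicates 1 and 2 gave 87 and 150). Of the 10 Notch genes 0 passed in every setting run except array weights, where 1 did (Dll1). Of the other pathway genes 1 passed (Egfl7) except in replicates 2 and 3 alone (0) and with array weights (4). Between the fits, signs changed only for Notch2, Notch4, Jag2 and Hes1, whose main differences lay between -0.0557 and 0.0417. Within replicate 1 alone, Dll4 was at -0.103, against 0.0744 in the main fit. Notch2 and Hes1 were above 0 there, at 0.055 and 0.061. With 1 array left out, Notch2 ran from -0.0914 to 0.0383, Jag2 from -0.0244 to 0.11 and Hes1 from -0.0495 to 0.0632. With array weights Notch2 was at 0.00729 and Hes1 at 0.0132, with arrays centred on their medians Hes1 was at 0.0118, and in replicates 2 and 3 alone Notch4 was at 0.0131.

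With the replicate number as a block, 215 of all genes, 0 of the 10 Notch genes and 1 other pathway gene passed. The numbers share no stated source: same-numbered arrays deviated from their group means with correlations of 0.00659 and 0.104 for replicates 2 and 3, while the -0.883 of replicate 1 follows from the balance of its arrays and says nothing on pairing. In the 12706 genes above the odorant receptor percentile, 7 of the 10 Notch genes remained and 0 passed.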
